A study of Mus musculus with 6 samples.

Results

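The 10 genes described are the granzymes Gzma, Gzmb, Gzmc, Gzmd, Gzme, Gzmf, Gzmg, Gzmk and Gzmm and the gene of perforin, Prf1. They were taken by symbol from the 32285 genes of the count matrices, and all 10 were found. Their unique molecular identifiers (UMIs, one per captured RNA molecule) were counted in CD8, CD4, regulatory T, gamma-delta T and NK cells. These 5 classes were gated from marker genes, none of which is a member. The study sequenced leukocytes (CD45+, EpCAM-, negative for the dead-cell dye 7-AAD) sorted from mouse colon tumours, with the 10x Genomics 3' v3 chemistry. The 6 libraries form 3 pairs of Control and SOX17KO: one is labelled 1wk, one 2wk, and the labels of the last give no time, so it is called the untimed pair. SOX17KO is the label for loss of the transcription factor SOX17. Tumours of 5 mice were pooled for a condition, per the series text. The alleles, the cells that lost Sox17, the strain, the age and how the tumours arose are not given in the sources used here. Each library is 1 pool, so a genotype has 1 sample in a collection and the spread between mice is not seen.

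Granzymes are serine proteases stored in the secretory granules of cytotoxic lymphocytes. Perforin forms pores that let them into a target cell, where granzyme B, which cuts after aspartate, starts apoptosis, and granzyme A, which cuts after basic residues, damages the cell by other routes. Mouse NK cells and effector CD8 T cells are the classical holders of both, and mouse regulatory T cells can also make granzyme B. The gene family is split over a few genomic clusters, and rodents carry a group of closely related granzymes (C to G) beside granzyme B.

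On the GENCODE M21 annotation of GRCm38 (mm10), 6 members lie on the minus strand of chromosome 14 within 145 kb. They run from Gzme (14, 56117626 to 56120625) and Gzmd (56129556 to 56132608) through Gzmg (56156582 to 56159579), Gzmf (56205263 to 56211417) and Gzmc (56231441 to 56234656) to Gzmb (56258838 to 56262260). Gzma (chromosome 13, 113093825 to 113100981, minus strand) and Gzmk (113171608 to 113225908, minus strand) are neighbours on chromosome 13. Prf1 (61297833 to 61304680) and Gzmm (79689020 to 79695261) lie on the plus strand of chromosome 10. Reads of this chemistry come from the 3' ends of transcripts. In the last 400 bases of the longest transcript, 12.3% of the words of 60 bases in Gzmg occurred in another gene too, 6.74% in Gzmd, 6.45% in Gzmf and 4.11% in Gzme, and none in the other 6 members. Counts of Gzmd to Gzmg can therefore be split between them to a small extent, whereas those of the other members cannot by this measure.

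The 150 bases before the RefSeq start site (GRCm38.p6) are shown for the 6 members of the chromosome 14 cluster and for Gzma, because cells rich in some cluster genes lacked others and Gzma was the member that separated NK cells most from CD8 cells after the largest cells were left out. Each is written 5' to 3' on the strand of the gene, which is minus for all 7. Capitals mark matches to 3 motifs, searched on both strands: ACCACA (or TGTGGT), the core bound by RUNX factors, TGANTCA, bound by AP-1, and TGACGTCA, the cyclic AMP response element (CRE). The windows were chr13:113100982-113101131 for Gzma, chr14:56262335-56262484 for Gzmb, chr14:56234658-56234807 for Gzmc, chr14:56132594-56132743 for Gzmd, chr14:56120626-56120775 for Gzme, chr14:56211408-56211557 for Gzmf and chr14:56159580-56159729 for Gzmg.
Gzma: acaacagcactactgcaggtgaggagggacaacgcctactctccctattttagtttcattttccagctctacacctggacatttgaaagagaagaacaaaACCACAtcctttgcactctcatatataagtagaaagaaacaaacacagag
Gzmb: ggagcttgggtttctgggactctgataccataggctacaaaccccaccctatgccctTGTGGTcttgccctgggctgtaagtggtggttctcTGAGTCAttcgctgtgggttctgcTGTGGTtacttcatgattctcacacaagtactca
Gzmc: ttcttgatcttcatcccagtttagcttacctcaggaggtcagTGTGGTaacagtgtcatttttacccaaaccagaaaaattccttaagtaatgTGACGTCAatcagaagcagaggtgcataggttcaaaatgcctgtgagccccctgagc
Gzmd: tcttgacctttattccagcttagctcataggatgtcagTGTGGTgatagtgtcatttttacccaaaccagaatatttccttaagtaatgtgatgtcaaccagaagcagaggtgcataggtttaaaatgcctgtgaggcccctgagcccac
Gzme: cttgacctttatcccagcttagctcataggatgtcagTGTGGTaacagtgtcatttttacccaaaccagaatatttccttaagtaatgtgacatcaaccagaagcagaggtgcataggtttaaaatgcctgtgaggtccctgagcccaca
Gzmf: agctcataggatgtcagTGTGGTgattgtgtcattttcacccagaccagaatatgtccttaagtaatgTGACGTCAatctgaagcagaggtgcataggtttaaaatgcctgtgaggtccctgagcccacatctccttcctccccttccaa
Gzmg: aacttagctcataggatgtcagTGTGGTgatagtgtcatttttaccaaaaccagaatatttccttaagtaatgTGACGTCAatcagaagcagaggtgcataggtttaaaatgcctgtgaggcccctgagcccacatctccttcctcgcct

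In the 250 bases before the start, the RUNX core was found in 9 of the 10 members, all but Gzmk, and in 14.05% of the 32851 RefSeq promoters in the table. The AP-1 letters were in 1 of 10 members, Gzmb, and in 6.75% of all promoters. The CRE letters were in 3 of 10, Gzmc, Gzmf and Gzmg, and in 1.55% of all promoters. The T-box letters AGGTGTGA were in no member and in 1.12% of all promoters. The same held for the letters of ETS factors, CCGGAAG, with 6.91% of all promoters, and of the TATA box, TATAAA, with 12.4%. Variants of these letters were not searched. The Gzma sequence above holds TATATAAG, which is near to the TATA box letters and was not counted. Gzmd and Gzme were identical at 94.8% of aligned columns over these 250 bases, Gzmc and Gzme at 80.9%, and Gzmb and Gzmc at 47.5%. The 9 matches are therefore not independent, since 5 of them come from copies of one another, and a match describes letters only.

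After removal of barcodes with few genes, many mitochondrial UMIs or a high doublet score, each library kept between 2933 and 6860 cells, whose median depth lay between 3006 and 5881 UMIs. The gates took 7 to 2696 CD8, 14 to 490 CD4, 19 to 395 regulatory T, 16 to 288 gamma-delta T and 30 to 218 NK cells per library. The 1wk pair held few T cells: 7 and 21 CD8 cells in Control and SOX17KO. Sox17 itself had 7 and 4 UMIs in untimed Control and SOX17KO, 9 and 20 at 1wk and 10 and 3 at 2wk over all kept cells, so these leukocyte libraries do not check the genotype labels. A class entered a test only from libraries with at least 20 of its cells. Any 2 libraries shared 4 to 13 cell barcodes. In the 1wk T cell gates some macrophage RNA was present: UMIs of C1qa, C1qb and C1qc, with Csf1r at 0 by the gate, came to 106 and 503 CPM (UMIs of a gene scaled to one common total of UMIs for every class and library) in CD8 cells and 833 and 699 in CD4 cells, against 0.826 to 83.96 in those gates of the other collections. In 1wk NK cells they came to 250.4 and 91.2, and in 1wk regulatory T cells to 56.1 and 17.2. Its part in the 1wk values of the members was not tested.

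Over all kept cells the members held from 329 UMIs (Gzmm) to 46495 (Gzmb). NK cells held 53.6% of the 39253 Gzma UMIs and CD8 cells 16.8%. CD8 cells held 39.9% of the Gzmb UMIs, 60.1% of the 3681 Gzmk UMIs and 35.5% of the 14423 Prf1 UMIs, and NK cells 11.4%, 0.869% and 21.4% of these. A further 27.8% of Gzmb UMIs lay outside every gate. In the untimed Control library 142 such cells had at least 5 Gzmb UMIs, and 129 of these also had at least 2 UMIs of the T cell markers, as had 60 of 67 in the 2wk Control library. At 1wk the ungated cells were of another make-up: of 132 in Control, 78 had at least 2 UMIs of the T cell markers and 93 at least 2 of the macrophage markers, and of 127 in SOX17KO 78 and 81. In B cells and macrophages, which should lack these genes, at most 1.36% of cells held a Gzmb UMI, 0.61% a Prf1 UMI and 4.55% a Gzma UMI after each cell was thinned to 1000 UMIs, in libraries with at least 20 such cells. The 4.55% is 1 of 22 B cells of the 1wk Control library.

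Perforin was at an even level in NK cells across all 6 libraries. Prf1, which encodes the pore-forming protein, was at 697 and 601 CPM in untimed Control and SOX17KO, at 664 and 778 at 1wk, and at 639 and 837 at 2wk. In CD8 cells it was at 303 and 85.9 in the untimed pair, 21.3 and 35.6 at 1wk, and 212 and 187 at 2wk. NK and CD8 levels did not overlap: the lowest NK library was above the highest CD8 library. Prf1 was 2.23 higher on the log2 scale in NK than in CD8 cells (SE 0.45, edgeR adjusted p = 0.000846, Benjamini-Hochberg over all genes tested), over the 5 libraries with at least 20 cells of both. CD4 and regulatory T cells held little of it, with medians of 13.96 and 4.30 CPM over their libraries with at least 20 cells. Regulatory T cells of 2 libraries had none. Gamma-delta T cells had a median of 15.9 CPM but reached 350 in 2wk Control, above every CD8 library. Of the 130 Prf1 UMIs there, 55 and 53 were in 2 cells over 20000 UMIs, and without the richest cell the level was 214. After thinning, 27.6% to 48.7% of NK cells, 4.76% to 19.1% of CD8 cells and 0% to 2.27% of regulatory T cells held a Prf1 UMI.

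Gzma, the tryptase of the family, marked NK cells. It was at 4232 and 2438 CPM in untimed Control and SOX17KO NK cells, at 7718 and 5799 at 1wk, and at 4423 and 3627 at 2wk. Control was above SOX17KO in each pair. In CD8 cells Gzma was at 196 and 7.28 in the untimed pair, at 0 and 925 at 1wk (0 and 182 UMIs, 108 of the latter in 1 cell), and at 433 and 783 at 2wk. It was 4.03 higher on the log2 scale in NK than in CD8 cells (SE 0.87, edgeR adjusted p = 0.00167), and no alternative ended that call. Against CD4 cells, where the median was 2.67 CPM over 4 libraries, CD8 cells were 7.50 higher on the log2 scale (SE 1.39, edgeR adjusted p = 0.000885), a call that ended without the exclusion of other-lineage cells (3.33, edgeR adjusted p = 0.103). After thinning, 31.0% to 92.6% of NK cells and 0.672% to 15.3% of CD8 cells held a Gzma UMI. Gzma was thus in few CD8 cells but at high counts in those that had it, with a median of 5 UMIs in the positive cells of both Control libraries with many CD8 cells and 8 at 2wk in SOX17KO.

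Gzmb, the granzyme that cleaves caspases, was spread over several classes with overlapping ranges. It ranged from 556 to 2423 CPM in NK cells, from 85.8 to 1997 in CD8 cells and from 223 to 3896 in regulatory T cells, each over libraries with at least 20 cells. By the same rule gamma-delta T cells ranged from 25.5 to 1496 and CD4 cells from 5.78 to 106. The 1496 is from 2wk Control, where 1 cell held 360 of the 555 UMIs, and without that cell the level was 556. Within a library the classes could differ. In NK, CD8 and regulatory T cells Gzmb was at 770, 612 and 223 in untimed Control and at 556, 85.8 and 524 in untimed SOX17KO. Regulatory T cells were not tested against NK or CD8 cells. NK and CD8 cells were not told apart by Gzmb: the fitted difference was 0.33 (SE 0.55, edgeR adjusted p = 0.757), and its sign turned under 2 alternatives. CD8 cells exceeded CD4 cells by 3.87 on the log2 scale (SE 0.68, edgeR adjusted p = 0.00052).

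Regulatory T cells held Gzmb and almost no other member. Their Gzmb was at 223 and 524 CPM in untimed Control and SOX17KO, at 3150 and 3896 at 1wk, and at 1015 and 1585 at 2wk. SOX17KO was above Control in all 3 pairs, and the 1wk pair was highest in both genotypes. The difference from CD4 cells was 4.21 on the log2 scale (SE 0.71, edgeR adjusted p = 0.000465), over the 4 libraries with at least 20 cells of both. Gzmk went the other way, at -2.56 (SE 0.59, adjusted p = 0.00812 in edgeR), a call lost with limma-voom (-2.24, adjusted p = 0.388) and without the 2wk pair (-1.94, edgeR adjusted p = 0.142). The other 7 members tested had edgeR adjusted p-values of 0.448 to 1. In numbers of molecules, the 573 regulatory T cells of the 5 libraries with at least 20 of them held 1846 UMIs of Gzmb, 41 of Gzmc, 27 of Prf1, 13 of Gzmd, 11 of Gzmk, 7 of Gzma, 6 of Gzmm, 4 of Gzme, 1 of Gzmf and 0 of Gzmg. In the untimed Control library 9 of the 140 regulatory T cells with Gzmb also had a Prf1 UMI.

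Gzmk, a second tryptase-like granzyme and the neighbour of Gzma, was a CD8 gene here. It was at 91.6 and 29.5 CPM in untimed Control and SOX17KO CD8 cells and at 127 and 128 at 2wk. The 1wk libraries held 0 and 4 UMIs of it. NK cells had 0 to 16.8 CPM, which is 3.22 lower than CD8 cells on the log2 scale in the fit (SE 0.39, edgeR adjusted p = 1.22e-06). CD4 cells, at 6.61 to 27.0, were lower than CD8 cells by 2.48 (SE 0.31, edgeR adjusted p = 7.4e-06), which limma-voom did not call (2.49, adjusted p = 0.415). Gamma-delta T cells held 2 Gzmk UMIs in 542 cells of 5 libraries, and the fitted difference from CD8 cells was -6.39 (SE 0.66, edgeR adjusted p = 1.43e-07). Gzma and Gzmk, though adjacent, thus had opposite orders in NK and CD8 cells. Gzmm was sparse. It had 18 UMIs in 895 NK cells and 108 in 5031 CD8 cells of libraries with at least 20 cells. It was the member that did not pass the expression filter of the class fit.

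**Figure D1:**
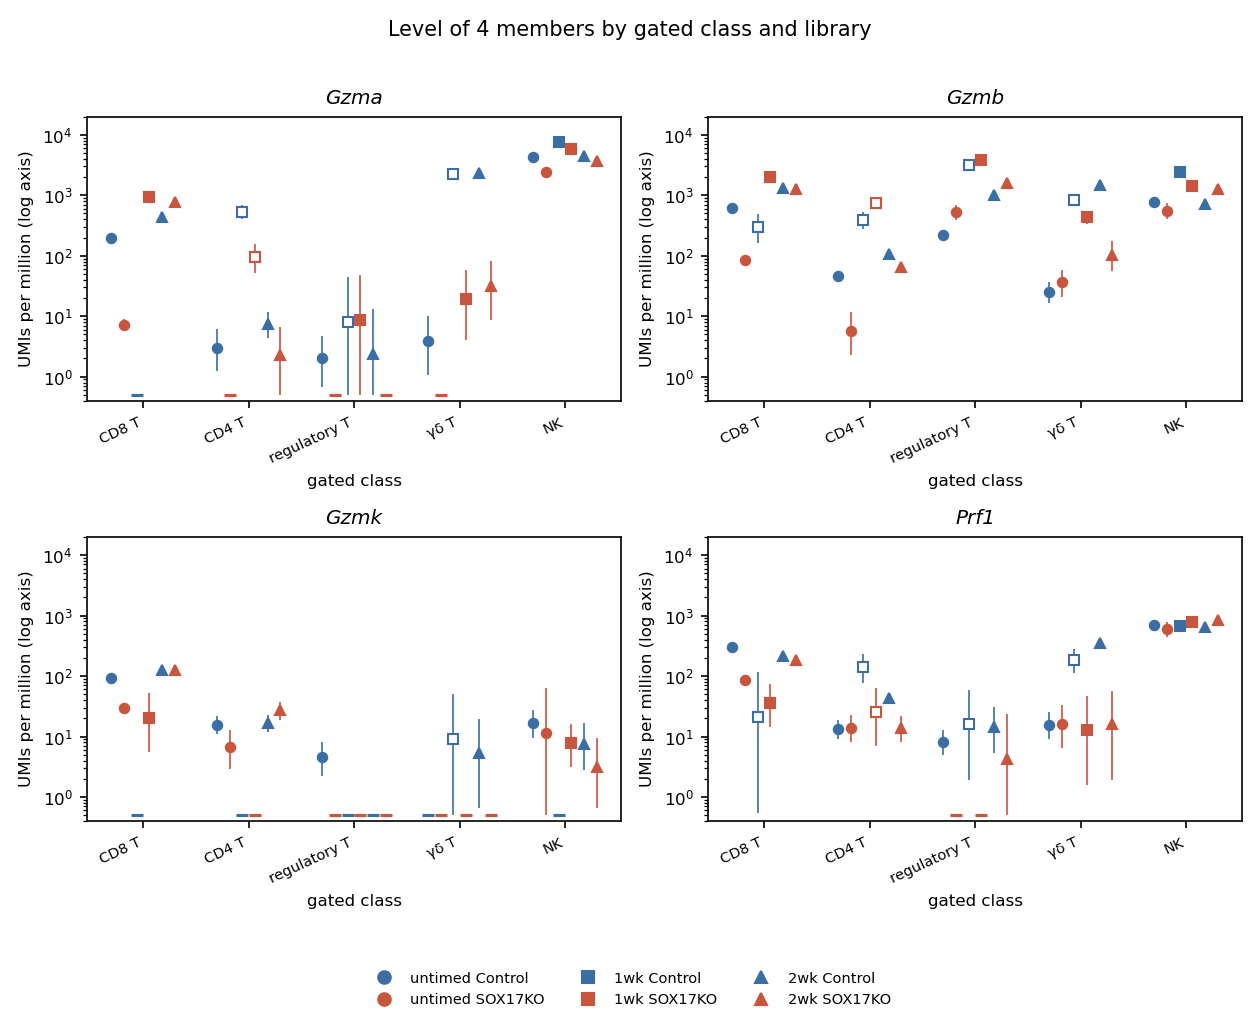
Level of Gzma, Gzmb, Gzmk and Prf1 in CPM (log axis) for each of the 5 gated classes and 6 libraries. Colours are genotypes, shapes are collections, vertical lines are 95% counting intervals, open symbols have fewer than 20 cells and dashes at the base are libraries with 0 UMIs. Prf1 in NK cells stays between 601 and 837 while Gzma in CD8 cells spans 7.28 to 925 where UMIs were found.

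**Figure D2:**
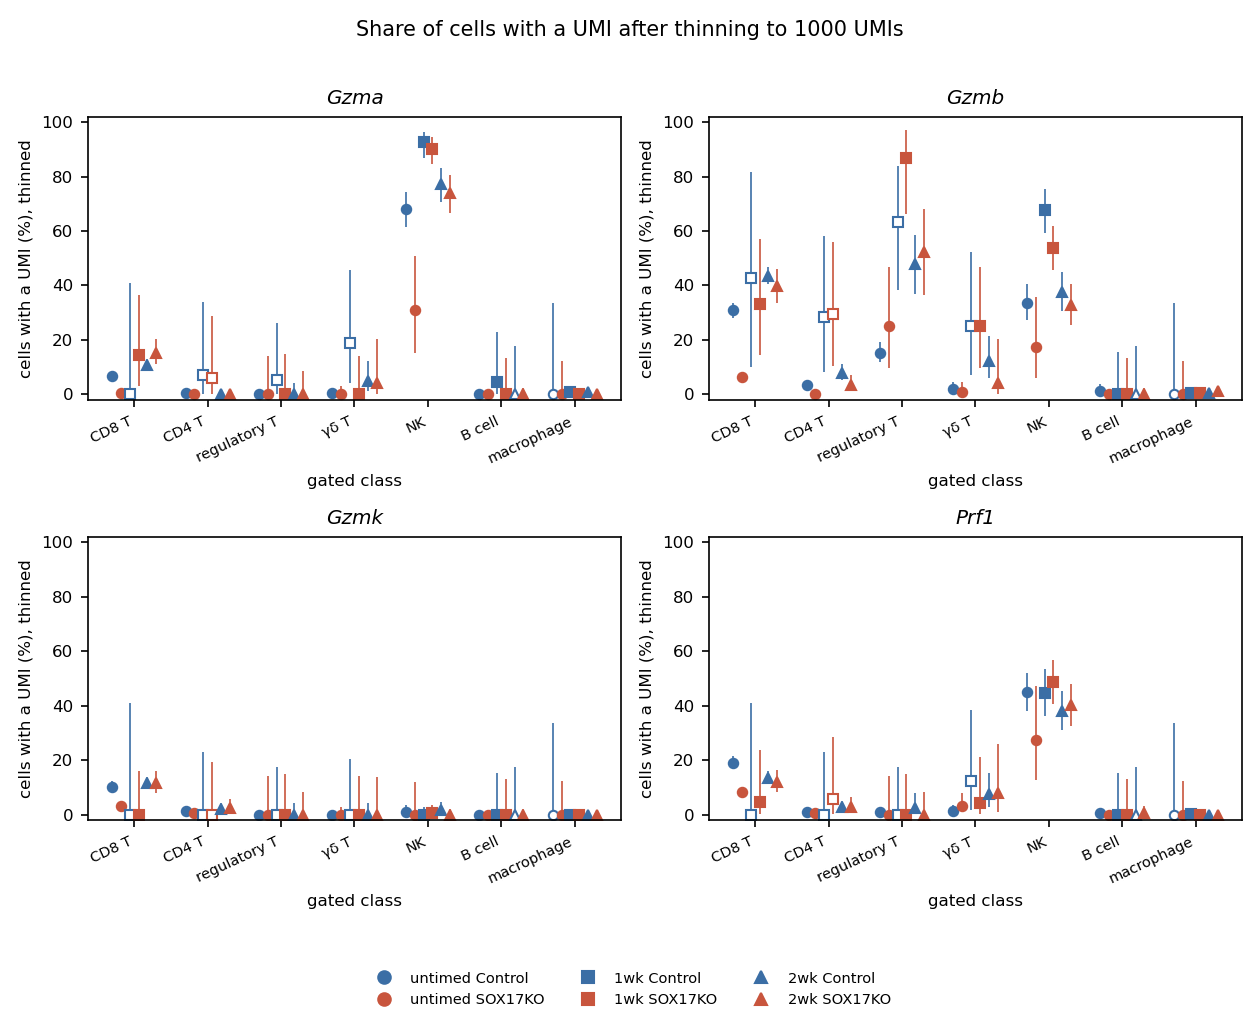
Share of cells with at least 1 UMI after each cell was thinned to 1000 UMIs, for the 5 lymphocyte classes and for B cells and macrophages as classes that should lack the genes. Lines are exact 95% binomial intervals, and open symbols have fewer than 20 cells. Gzma reaches 92.6% of NK cells and Gzmb 87.0% of regulatory T cells at 1wk.

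Of the 9 members that passed the filter of the class fit, 6 were called higher in NK than in CD8 cells (edgeR adjusted p under 0.05), where 8.29% of the 11342 genes tested were higher, and 1, Gzmk, was lower, where 8.6% were. The 6 were Gzma, Gzmc, Gzmd, Gzme, Gzmg and Prf1. The median fold change of the 9 was 3.75, and that of all genes -0.07 (log2). Without cells over 20000 UMIs the median of the 8 then tested was 2.41. Gzmc, at 52.7 to 956 CPM in NK and 4.79 to 57.8 in CD8 cells, was 3.75 higher (SE 1.04, edgeR adjusted p = 0.0124). Of its 2wk NK UMIs, 1 cell held 242 of 356 in Control and 1 cell 593 of 900 in SOX17KO. Without the richest cell of each library these levels were 147 and 362 CPM. The NK UMIs behind the calls of Gzmd, Gzme and Gzmg came almost all from 1 cell. That cell, of the 2wk SOX17KO library, held 886 of the 896 Gzmd, 601 of the 608 Gzme and all 493 Gzmg UMIs of NK cells. With cells over 20000 UMIs left out, an alternative chosen after seeing the data, Gzmd and Gzme fell to 2.89 and 2.89 (edgeR adjusted p = 0.0963 and 0.0509), Gzmg could not be tested, and Gzma (4.33), Gzmc (2.98), Prf1 (1.93) and Gzmk (-3.49) were still called.

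Between CD8 and CD4 cells, 4 of the 9 members were higher in CD8 cells, namely Gzma, Gzmb, Gzmk and Prf1, where 2.03% of all genes tested were. None was lower, where 3.83% of genes were. Gzmd and Gzme lay in the other direction, at -4.30 and -3.94 (edgeR adjusted p = 0.26 and 0.0945). Without the cells over 20000 UMIs both were called lower in CD8 cells, at -4.76 and -5.06 (edgeR adjusted p = 0.00234 and 9.55e-05). The counts were small: 79 Gzmd and 63 Gzme UMIs in 1416 CD4 cells of 4 libraries, and 8 and 11 in 5031 CD8 cells of 5 libraries. In regulatory T against CD4 cells, 1 member, Gzmb, was higher (2.33% of genes) and 1, Gzmk, lower (3.39% of genes).

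Gamma-delta T cells also held most UMIs of some members in single cells. Against CD8 cells, 1 of the 9 members was called higher (Gzmd, 7.04, SE 1.83, edgeR adjusted p = 0.0151), where 6.64% of genes were, and 1 lower (Gzmk), where 6.4% were. In the 2wk Control library, 87 of 95 Gzmd, 423 of 677 Gzmf and 807 of 861 Gzma UMIs of this class came from 1 cell of 40297 UMIs, with 1 Trdc UMI and no Cd3e. Without cells over 20000 UMIs the picture turned: Gzma (-2.98), Gzmb (-2.97), Gzmk (-6.48) and Prf1 (-2.96) were called lower than in CD8 cells, with edgeR adjusted p-values of 0.00391, 9.63e-05, 3.93e-08 and 2.42e-06. Gzmc, Gzmd, Gzme and Gzmf then had negative and uncalled fold changes.

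**Figure D3:**
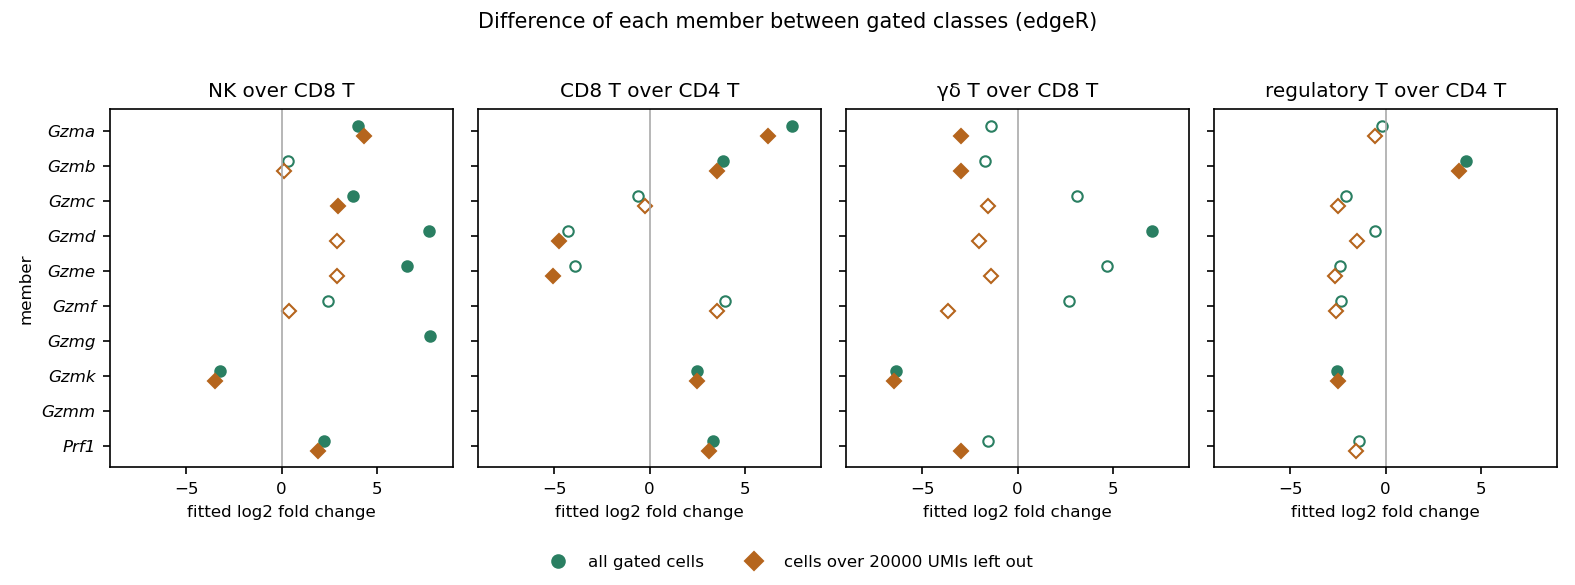
Fitted log2 fold change of each member in 4 comparisons of gated classes, with all gated cells (circles) and with cells over 20000 UMIs left out (diamonds). Filled symbols have an edgeR adjusted p under 0.05, and a member with fewer than 10 UMIs in the classes compared, or that did not pass the expression filter, has no symbol. Gzmd, Gzme and Gzmf move most between the settings, and Gzmk and Prf1 in NK against CD8 cells hardly move.

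In the 2wk libraries most UMIs of Gzmd to Gzmg were in a few cells. Cells with at least 20 UMIs of Gzmd, Gzme, Gzmf and Gzmg together numbered 19 over all gates and ungated T cells: 5 in the untimed Control library, 10 in 2wk Control, 4 in 2wk SOX17KO and none in the other 3. They held 43.7%, 93.4% and 97.3% of the UMIs of these 4 genes in those libraries. The 19 cells fell into 3 kinds by which genes they held, a grouping made after seeing them. In 12 cells (8 CD8, 2 NK and 2 other T cells) Gzmf was high, at most 1 UMI of Gzmd and Gzme was found, 11 also had Gzmc and all 12 had Gzmb. In 4 cells (2 CD4 and 2 other T cells, the latter with UMIs of both Cd4 and Cd8a) Gzmd and Gzme were high together, with no Gzmf and no Gzmc and at most 3 UMIs of Gzmb. In 3 cells, all over 20000 UMIs, Gzmd, Gzme, Gzmf and Gzmc were all present. These were the 2 gamma-delta T cells of the 2wk Control library and the NK cell of 94366 UMIs in 2wk SOX17KO.

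The second kind matches the pair of promoters above that were most alike (Gzmd and Gzme, 94.8% identical), and neither of these has the CRE letters. Of the genes in the first kind, Gzmf and Gzmc have them and Gzmb does not. Gzmg has them too, and its promoter was 82.2% identical to that of Gzmf, but a cell of the first kind held at most 2 of its UMIs. This is a description of letters beside counts and no test of control. The NK cell of 94366 UMIs held 1335 UMIs of Gzmf, 886 of Gzmd, 601 of Gzme, 593 of Gzmc, 549 of Gzmb, 500 of Gzma, 493 of Gzmg and 140 of Prf1, with 18 UMIs of the NK receptor gene Ncr1, 43 of the proliferation gene Mki67, and no Cd3e, Gzmk or Gzmm. The next largest NK cell of any library had 23379 UMIs. The doublet score did not remove it.

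**Figure D4:**
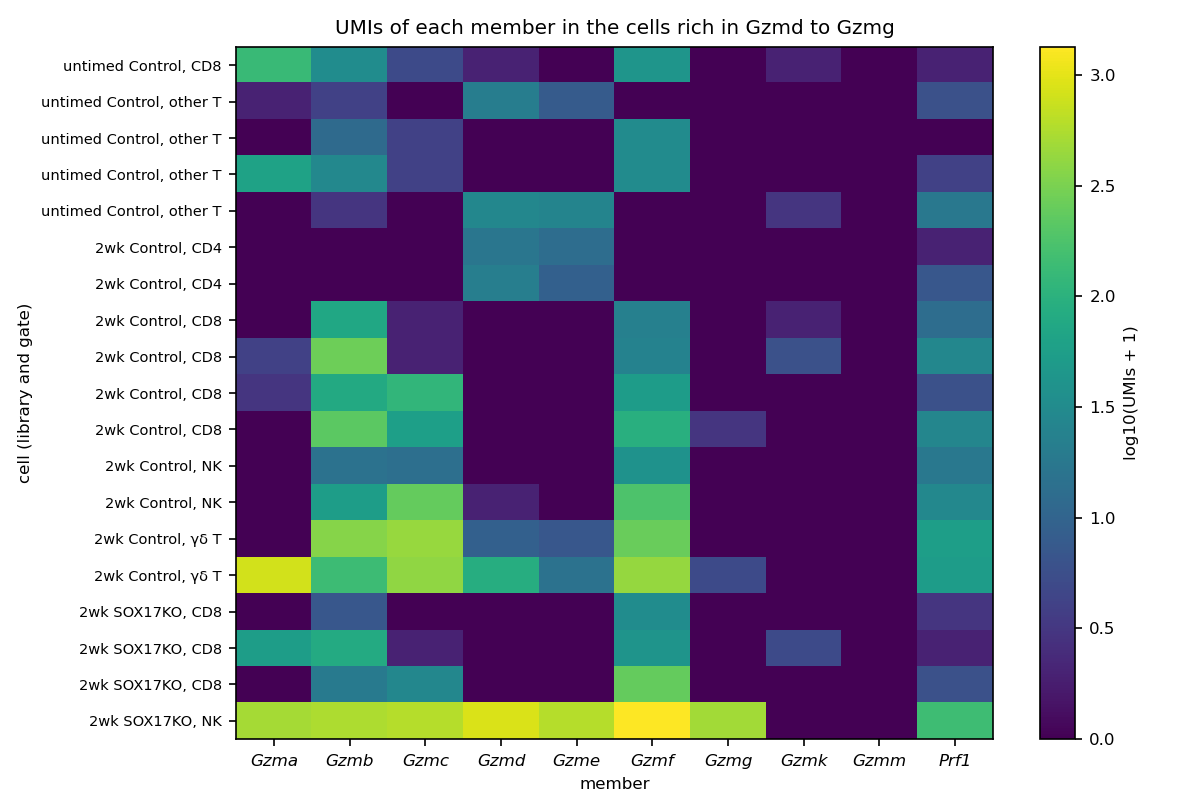
UMIs of each member, as log10(UMIs + 1), in the 19 cells with at least 20 UMIs of Gzmd to Gzmg. Rows are cells, named by library and gate ("other T" are T cells outside the 4 T cell gates), and columns are members. Cells with Gzmd and Gzme but no Gzmf, cells with Gzmf but nearly no Gzmd and Gzme, and 3 cells with all of them can be seen.

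In the 4 libraries with more than 200 CD8 cells, Prf1 was found more often in cells with Gzmb than in cells without it. In the 2wk Control library 60.8% of cells with a Gzmb UMI had a Prf1 UMI, against 25.9% of cells without one. The 2 shares were 67.7% and 27.6% in untimed Control, 39.3% and 22.6% in untimed SOX17KO, and 52.8% and 18.4% in 2wk SOX17KO. Among the 21 cells of 1wk SOX17KO the order was the reverse, at 18.2% (2 of 11) and 40.0%. Gzmk was not set apart from Gzmb: in 2wk Control 52.9% of cells with Gzmb and 24.4% of cells without it had Gzmk. Cells with more UMIs are more likely to show any gene, so these shares carry depth as well. In NK cells of 2wk Control 84.1% of Gzmb-positive and 56.6% of Gzmb-negative cells had Prf1.

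The comparison of genotypes asks whether these genes were at another level in lymphocytes of tumours labelled SOX17KO. In untimed CD8 cells every member with at least 10 UMIs was lower in SOX17KO. Gzma was 27.0-fold lower (1421 UMIs in 1089 cells against 79 in 2696), Gzmf 12.4-fold, Gzmb 7.13-fold, Gzmc 5.34-fold, Prf1 3.53-fold, Gzmk 3.11-fold and Gzmm 2.39-fold lower. The log2 ratios for Gzma and Gzmb, with exact conditional binomial 95% intervals, were -4.75 (-5.10 to -4.43) and -2.83 (-2.94 to -2.73). These intervals cover counting error only. At 2wk the same cells gave another picture: Gzma was 1.81-fold higher in SOX17KO (log2 0.85, 0.77 to 0.94) and Gzmf 5.06-fold higher, with 243 of its 334 UMIs in 1 cell, while Gzmb (-0.09, -0.16 to -0.03, and -0.30 without the richest cell of each library), Prf1 (-0.18, -0.34 to -0.02), Gzmc (0.04, -0.27 to 0.33) and Gzmk (0.01, -0.19 to 0.21) lay near 0. Gzmm had 45 and 5 UMIs (-1.35, -3.04 to -0.02). At 1wk, with 7 Control cells, Gzma had 0 and 182 UMIs, at least 14.5-fold higher in SOX17KO against a floor of 3 counts.

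The untimed SOX17KO CD8 cells differed from the Control cells in more than these genes. They were 44.6% of kept cells against 16.8%, had a median of 3226 UMIs against 5433, and 20.8% held a Tox UMI against 76.2%. At 2wk the Tox shares were 47.2% in Control and 39.5% in SOX17KO. Cycling cells, with a UMI of Mki67 or Top2a, were 30.3% of untimed Control and 15.3% of untimed SOX17KO CD8 cells. By these splits, Gzmb was at 562 and 67.4 CPM in untimed Control and SOX17KO cells with Tox, at 876 and 92.4 in cells without, at 550 and 58.2 in cycling cells and at 664 and 93.8 in the rest. Gzma was at 139 and 5.99 in cells with Tox and at 495 and 7.73 in those without. The part of composition in the pair's difference was not tested.

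In the fit of the 2 collections with enough CD8 cells, with collection as a block, 0 of 7 members tested were called, and 0 of all 12027 genes (0%), where 902 genes and 1 member, Gzmm, had an unadjusted p under 0.05. DESeq2 called 16 genes and limma-voom none, and neither called a member. The fitted difference of Gzma was -1.80 (SE 1.68, edgeR adjusted p = 0.76), and all 7 fitted values were below 0, the highest of them, Gzmf, at -0.0028. The median of the 7 was -1.09, and that of all 12027 genes -0.03. With 2 pairs, a gene's own residual spread is the disagreement of the difference between them. It was wide for Gzma (-4.75 and 0.85) and narrow for Gzmm (-1.26 and -1.35). The edgeR test moderates this spread over all genes, so the SE does not follow the disagreement closely. Gzmf, at -3.63 and 2.34 in the 2 pairs, had an SE of 0.72, and Gzmm an SE of 0.44.

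**Figure D5:**
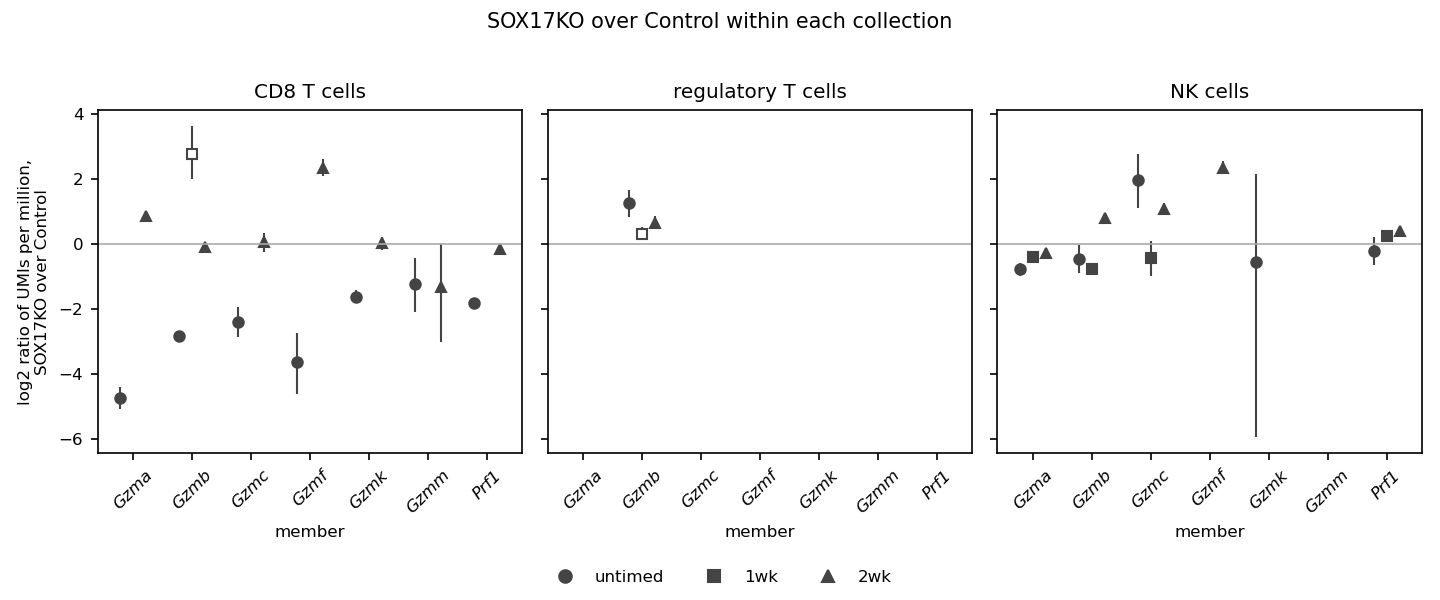
Log2 ratio of CPM, SOX17KO over Control, for 7 members in CD8, regulatory T and NK cells. Shapes are collections, lines are 95% counting intervals, open symbols have fewer than 20 cells in a library, and a ratio needs at least 1 UMI in each library and 10 in both. In CD8 cells the untimed ratios lie below 0 for all 7 members, whereas the 2wk ratios of Gzmc, Gzmk, Gzmb and Prf1 lie near 0.

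Regulatory T cells had more Gzmb in SOX17KO in all 3 pairs, at log2 ratios of 1.23 (0.81 to 1.64), 0.31 (0.11 to 0.51) and 0.64 (0.44 to 0.85) for untimed, 1wk and 2wk. Without the cell richest in Gzmb in each library the ratios were 1.11, 0.39 and 0.46, with intervals still above 0. The untimed SOX17KO library held 24 regulatory T cells with 55 Gzmb UMIs. The shares of cells with a Gzmb UMI after thinning (60 of 391 and 6 of 24 untimed, 12 of 19 and 20 of 23 at 1wk, 42 of 88 and 22 of 42 at 2wk) had overlapping intervals within each pair. Over the untimed and 2wk pairs the fitted difference was 0.93 (SE 0.31), which was not called (unadjusted p = 0.0152, edgeR adjusted p = 0.966). It was the single member tested in these cells. Of all 5354 genes 0 were called (0%) and 265 had an unadjusted p under 0.05, while DESeq2 called 2 and limma-voom 1.

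NK cells had less Gzma in SOX17KO in all 3 pairs, at log2 ratios of -0.80 (-1.001 to -0.60), -0.41 (-0.47 to -0.36) and -0.29 (-0.36 to -0.22). Without the richest cell of each library the untimed value was -1.32, since 1 of the 30 SOX17KO cells held 81 of their 215 Gzma UMIs. In the fit of 3 pairs this was -0.54 (SE 0.18, unadjusted p = 0.0113, edgeR adjusted p = 0.958). Prf1 was at -0.21 (-0.65 to 0.19), 0.23 (0.05 to 0.41) and 0.39 (0.23 to 0.55). Gzmb was at -0.47, -0.79 and 0.78, and the last of these became 0.15 (-0.02 to 0.32) without 1 cell. The untimed SOX17KO NK cells, 30 in number, carried more T cell RNA than the others: 36.7% of them had a UMI of Cd3d, Cd3e or Cd3g, with Trac at 0 by the gate, against 2.92% to 9.17% in the other libraries, and 26.7% had a Cd8a or Cd8b1 UMI. In 10 of these 30 cells a Gzma UMI was found, against 172 of 218 in untimed Control. The part of the T cell RNA was not tested, and the 1wk and 2wk ratios do not involve that library. Of 5 members tested 0 were called, and of 8039 genes 0 (0%), with 336 genes and 3 members (Gzma, Gzmc and Gzmf) at an unadjusted p under 0.05. Gzmf, at 2.36 (edgeR adjusted p = 0.0926), turned to -5.60 without cells over 20000 UMIs. DESeq2 called 1 gene and limma-voom none.

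In CD4 cells 0 of 6 members were called, where 2 of 9580 genes (0.0209%) were. Gzmb was at 45.5 and 5.78 CPM in the untimed pair and at 106 and 63.9 at 2wk, a fitted difference of -1.41 (SE 0.48, unadjusted p = 0.0255, edgeR adjusted p = 0.582). It was the member with an unadjusted p under 0.05. DESeq2 and limma-voom called none of the 6. In gamma-delta T cells both members tested, Gzma and Gzmb, were called lower in SOX17KO, at -6.20 and -2.14 (edgeR adjusted p = 5.03e-19 and 0.000104), where 30 of 5906 genes (0.508%) were called. The fit used the untimed and 2wk pairs, and these calls rest on the 2wk pair. In the untimed pair Gzma had 4 UMIs in Control and 0 in SOX17KO. Untimed Gzmb, with 26 and 16 UMIs, lay in the other direction, at a log2 ratio of 0.52 (-0.48 to 1.47). Of the 2wk Control UMIs of this class, 807 of 861 for Gzma were in the cell of 40297 UMIs described above and 360 of 555 for Gzmb in another cell, of 20182 UMIs. Without the richest cell of each library the 2wk log2 ratios were -4.30 (-9.63 to -1.76) for Gzma, from 54 and 1 UMIs, and -2.93 (-4.17 to -1.93) for Gzmb. Without cells over 20000 UMIs, which leaves out both cells, the fitted values were -2.55 and -0.20 (edgeR adjusted p = 0.0509 and 0.999), and DESeq2, or a fit without the collection block, called neither, while limma-voom called both.

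Of the 25 genes listed for the granule pathway and its control, the granzyme inhibitors stood out in NK cells. Serpinb9, the inhibitor of granzyme B that protects cytotoxic cells from their own protease, and its relatives Serpinb6b and Serpinb9b were 2.26, 2.13 and 5.09 higher on the log2 scale in NK than in CD8 cells (SE 0.30, 0.26 and 0.66; edgeR adjusted p = 3.55e-06, 1.3e-06 and 3.02e-05). In all 7 of the 25 were higher, where 8.29% of all genes tested were, and 2 were lower, where 8.6% were. The latter were Tnfsf10 (-1.49) and Tnf (-1.62). The others that were higher were Fasl, Tbx21, Runx3 and Eomes, the last of which is part of the NK gate. No gene for granule storage or release was called in this comparison. The median of the 25 was 0.15.

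In CD8 against CD4 cells 4 of the 25 were higher (Eomes 2.97, Nkg7 1.15, Cst7 0.80, Lamp1 0.77), where 2.03% of all genes tested were. A further 3 were lower (Serpinb9b -3.38, Stx11 -1.20, Srgn -0.61), where 3.83% of genes were. Nkg7 encodes a granule membrane protein of cytotoxic cells, Cst7 the protease inhibitor cystatin F and Srgn the proteoglycan serglycin that holds granzymes in the granule. Regulatory T cells had 0 of the 25 higher (2.33% of genes) and 10 lower (3.39% of genes) than CD4 cells, with a median of -0.85. Ifng (-4.55), Fasl (-3.32), Serpinb9 (-2.22), Serpinb6b (-1.86) and Nkg7 (-1.70) were among these. Gzmb was thus higher in these cells than in CD4 cells, while 10 of the listed genes were lower and the rest were not called. Gamma-delta T cells had 1 higher than CD8 cells (Tnf 1.35), where 6.64% of genes were. They had 9 lower, where 6.4% of genes were, among them Ifng (-3.11), Nkg7 (-2.16) and Fasl (-2.10). The median of the 25 was -0.70.

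Between genotypes none of the 25 was called in CD8, CD4 or NK cells, nor any of the 19 tested in regulatory T cells, with unadjusted p-values under 0.05 for 4, 6, 4 and 3 of them. Of all genes tested in these classes, 0%, 0.0209%, 0% and 0% were called. The 3 listed genes of largest change were Tnf (1.43), Cst7 (-0.86) and Fasl (0.81) in CD8 cells. In CD4 cells they were Ctsh (-0.85), Zeb2 (0.83) and Tnf (0.81). In NK cells they were Ctsh (-1.81), Stxbp2 (-0.80) and Tnf (-0.64), and in regulatory T cells Nkg7 (-1.56), Serpinb9 (-1.40) and Ctsc (-1.14). In gamma-delta T cells 1 of 23, Nkg7, was called (-1.19, SE 0.31, edgeR adjusted p = 0.0333), where 0.508% of all genes were.

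Over the 25 sums of a class and library with at least 20 cells, the genes whose level followed a member most closely were ranked by Spearman rho among 8119 genes. For Gzma these were Slamf7 (0.91), Klre1 (0.90), Setbp1, Efhd2 and Xcl1, for Prf1 Gnptab (0.94), Klra3 (0.93), Mctp2, Klre1 and Lrrk1, and for Gzmb Galk1 (0.77), Atp11b (0.75), Ptp4a3, Cox7b and Fam49b. Klre1 is one of the NK gate's markers. The sums share libraries and classes, so these values describe likeness over few independent samples. Gzmb had weaker best matches than the other 2.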

How the data were processed

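The deposited matrices give, for each barcode, the whole-number UMI count of every gene, as deposited by the authors, made with Cell Ranger (6.0.1 per the submitters' processing notes, 7.0.1 per the file headers) on mm10. The intron setting and annotation release are not given in the sources used here. Barcodes with under 200 genes, over 10% mitochondrial UMIs or a high doublet score (0.8% of barcodes per 1000 recovered, scored against simulated doublets) were removed. Classes were gated on UMIs: at least 2 of Cd3d, Cd3e and Cd3g, then Cd8a or Cd8b1, Cd4, Foxp3 or Trdc (Trdc without Trac), each without the others; NK cells had at least 2 of Ncr1, Klrb1c, Klre1 and Eomes, under 2 of the CD3 genes, and none of Trac, Il7r, Il1rl1 and a further marker that is not reported here. No cell had a UMI of 9 other-lineage genes. UMIs were summed per class and library (at least 20 cells) and tested over all genes with edgeR 4.0.16 (TMM, filterByExpr, quasi-likelihood, Benjamini-Hochberg 0.05), with library and class, or collection and genotype, as terms. The collection block pairs the 2 libraries of 1 collection, as labelled. DESeq2 1.42.0 and limma-voom 3.58.1 were alternatives. The SE is the fold change over the root of F. P-values rest on the spread between these libraries, which the fits moderate over genes. On simulated counts the NK genotype fit found 11% of 2-fold and 81% of 4-fold changes over 8039 genes, and the NK against CD8 fit 27% and 93% over 11342. The simulation gave every gene the same dispersion and changed only genes with larger mean counts. It had no gene differences between collections, libraries or classes besides those put in. Single cells that hold most UMIs of a gene were not simulated, so these shares do not give the power for such members. Within 1 collection no test was made. All 10 members are named, and of 25 listed pathway genes those called, or else the 3 of largest change. Members, lists and gates were chosen with earlier results of these data known.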

Additional observations from a re-analysis of the deposited data

Results flagged for a closer look

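In CD8 cells 3 members had ratios of SOX17KO over Control on opposite sides of 0 in different collections, each with a 95% counting interval that excludes 0 with and without its richest cell. The difference between collections was not tested, since each has 1 library per genotype. Gzma was at -4.75 (log2) in the untimed pair and 0.85 at 2wk. Gzmb was at -2.83 in the untimed pair, 2.75 at 1wk, from 7 Control and 21 SOX17KO cells, and -0.093 at 2wk (-0.30 without the richest cell of each library). Gzmf was at -3.63 in the untimed pair and 2.34 at 2wk, the latter 1.20 without the cell that held 243 of its 334 UMIs. Untimed SOX17KO CD8 cells had Tox UMIs in 20.8% of cells and Control cells in 76.2%, and 47.2% and 39.5% at 2wk had them in Control and SOX17KO.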

How the results depend on the processing

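Of 696 fold changes of members under the alternatives, 582 kept their direction and side of the threshold, 35 reversed, 24 were no longer called, 33 became called and 22 with no test moved. With no expression filter, the members called numbered 7 (CD8 against CD4), 9 (gamma-delta T against CD8), 5 (regulatory T against CD4) and, between genotypes, 1 (CD4), 4 (CD8), 4 (NK) and 6 (gamma-delta T). That setting called 1030, 1833 and 925 of 22221 genes in the class comparisons, and 226 of 17861, 504 of 20936, 44 of 16101 and 43 of 14982 genes between genotypes. With limma-voom they were 4 in NK against CD8 and 1 in regulatory T against CD4 (1586 and 420 of 11342 genes), and without cells over 20000 UMIs 4 in NK and 4 in gamma-delta T against CD8 (2036 and 1628 of 11195 genes). A 5% mitochondrial limit gave 1 between genotypes in NK cells (5 of 8097 genes). In gamma-delta T cells between genotypes, DESeq2, a T cell gate of 1 UMI and leaving out cells over 20000 UMIs gave 0 (0 of 5906, 0 of 6163 and 58 of 5712 genes), and 10 cells per library, no TMM scaling, no doublet removal and no other-lineage exclusion gave 1 each (3 of 5256, 11 of 5906, 1 of 6112 and 6 of 6643 genes). Leaving out each pair in turn gave 4 to 7 members (NK against CD8), 2 to 4 (gamma-delta T against CD8) and 1 to 2 (regulatory T against CD4). The genes called in these fits ran from 637 of 10907 to 1923 of 9593, from 503 of 9932 to 1424 of 9593 and from 90 of 10907 to 609 of 9593. Without the 2wk pair 6 members were tested.

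Fold changes that reversed were as follows. With limma-voom: Gzmc 0.82 (CD8 against CD4), Gzmb -0.12 (NK against CD8), Gzmf 1.14 (regulatory T against CD4), and between genotypes Gzmk 0.11 in CD4 and Gzmf 0.91 in CD8. With DESeq2: Gzma 0.18 (regulatory T against CD4). In gamma-delta T against CD8, Gzma was 0.27 with a T cell gate of 1 UMI and 0.073 with no other-lineage exclusion, and without cells over 20000 UMIs Gzmc was -1.57, Gzmd -2.03, Gzme -1.42 and Gzmf -3.64. Gzmf between genotypes in CD8 cells was 0.38 with Cd8b1 required, 0.12 without cells over 20000 UMIs, 0.0097 with a 5% mitochondrial limit and 0.026 with no doublet removal, and in NK cells -5.60 without cells over 20000 UMIs. Without those cells the ratios of Gzmb in 1wk CD4 (-1.66), Gzmc in 2wk NK (-0.32) and Gzmf in 2wk NK cells (-6.89) reversed, the last also without its richest cell (-4.45).

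Leaving out each pair in turn, values ranged for CD8 against CD4 from -1.94 to 2.55 (Gzmc), for NK against CD8 from -0.34 to 0.73 (Gzmb) and -1.44 to 3.24 (Gzmf), and for gamma-delta T against CD8 from -0.37 to 3.92 (Gzmc) and -0.94 to 3.92 (Gzmf). Between genotypes they ranged in CD4 cells from -2.09 to 0.60 (Gzmc), -1.24 to 0.69 (Gzmk) and -1.64 to 0.066 (Prf1), in CD8 cells from -4.75 to 0.85 (Gzma), -2.42 to 0.035 (Gzmc), -3.63 to 2.34 (Gzmf) and -1.64 to 0.013 (Gzmk), in NK cells from -0.69 to 0.17 (Gzmb) and -0.018 to 0.29 (Prf1), and in gamma-delta T cells from -3.85 to 0.52 (Gzmb). With 2 pairs, leaving 1 out leaves a ratio of 2 libraries with no test.

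The pairing is by collection. With no replicate block, 0 members were called between genotypes in gamma-delta T cells, and Gzma (0.26) and Gzmf (1.73) in CD8 and Gzmk (0.11) in CD4 cells reversed. The cause of these changes was not tested. Limits are set by 1 library per genotype and collection, by the 7 and 21 CD8 cells at 1wk, and by single cells that hold most UMIs of Gzmd to Gzmg.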

Other observations

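In CD8 cells of the 2wk pair, where Gzma was higher in SOX17KO, this was seen in cycling cells (493 and 824 CPM in Control and SOX17KO) and in non-cycling cells (292 and 715). Gzmb was higher in cycling than in other cells in both libraries, at 1534 against 889 in Control and 1638 against 616 in SOX17KO, while in the untimed pair the order was the reverse (550 against 664 and 58.2 against 93.8). Prf1 differed less by cycling state, at 214 against 205 in 2wk Control and 301 against 306 in untimed Control.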
